A study of Rattus norvegicus with 4 samples.

Results

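The cytochrome P450 family of the rat hippocampus was described on 4 two-colour chips of a whole-genome oligo array. Its members were the noncontrol spots whose transcript accession matched a RefSeq gene symbol made of Cyp and a digit, and they came to 83 of 43379 spots, 65 of 41012 probes and 56 of the 8899 genes that could be named. The RefSeq table held 90 protein-coding Cyp genes, so 34 had no probe that could be matched, among them Cyp46a1, the neuronal cholesterol hydroxylase, and Cyp7b1, an oxysterol and neurosteroid hydroxylase.

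The RNA came from the hippocampus of male Wistar rats. They were 10 weeks old when they were allocated to stay sedentary (Sed, 10 rats) or to run voluntarily for 4 weeks in a wheel without resistance (WR, 8 rats) or with resistance (RWR, 8 rats). The RWR load started at 4.5 g and reached 30% of body weight. Equal amounts of RNA of the replicates were pooled within each group before labelling, and how many rats the replicates of a pool stood for is not given in the sources used here. Chip 1 held WR in Cy5 and Sed in Cy3, chip 2 the same pools with the dyes exchanged, chip 3 held RWR in Cy5 and Sed in Cy3, and chip 4 exchanged them again. A pair of chips is therefore 1 pool against 1 pool, measured in both dye orientations; the SD of the 2 chips given with a mean is technical, no p-value between the groups was computed, and both comparisons share the Sed pool. In whole tissue, fewer cells of a type and less RNA per cell cannot be told apart.

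Cytochromes P450 are haem enzymes that insert an oxygen atom into a substrate, most of them in the endoplasmic reticulum with electrons from the reductase Por and some in mitochondria with electrons from ferredoxin. Families 1 to 3 act mainly on drugs and other foreign compounds and are known best from the liver, family 4 hydroxylates fatty acids and eicosanoids, and other families make or break down cholesterol, bile acids, steroid hormones, vitamin D and retinoic acid. In the brain they are known for local steroid, retinoid and arachidonic acid metabolism.

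The first question was which members gave a signal in the hippocampus. A probe counts here as detected when the scanner software found it well above background in both dyes on all 4 chips, that is in all 8 measurements. This held for 21 of 65 probes (32.3%), which represent 19 of 56 genes. Over all probes of the chips the share was 60.8%, and over the probes that could be named it was 68.5%. A further 35 probes passed in 1 to 7 measurements, and 9 (13.8%) in none, against 12.4% of all probes. No member was saturated. Above background is short below for well above background by this flag. A probe called at or below background did not pass it, which does not mean that it had no signal.

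Counts of detected genes differed between the branches of the family. Family 4 had 6 of 10 genes detected, family 2 had 5 of 22, family 3 had 1 of 5 and family 1 had 1 of 3. Both retinoic acid hydroxylases with a matched probe, Cyp26a1 and Cyp26b1, were detected, while Cyp26c1 had no matched probe. So were 2 of 4 genes of sterol and bile acid metabolism, 1 of 2 of vitamin D metabolism and the orphan enzyme Cyp20a1. None of the 7 genes of steroid hormone synthesis passed in all 8 measurements.

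**Figure D1:**
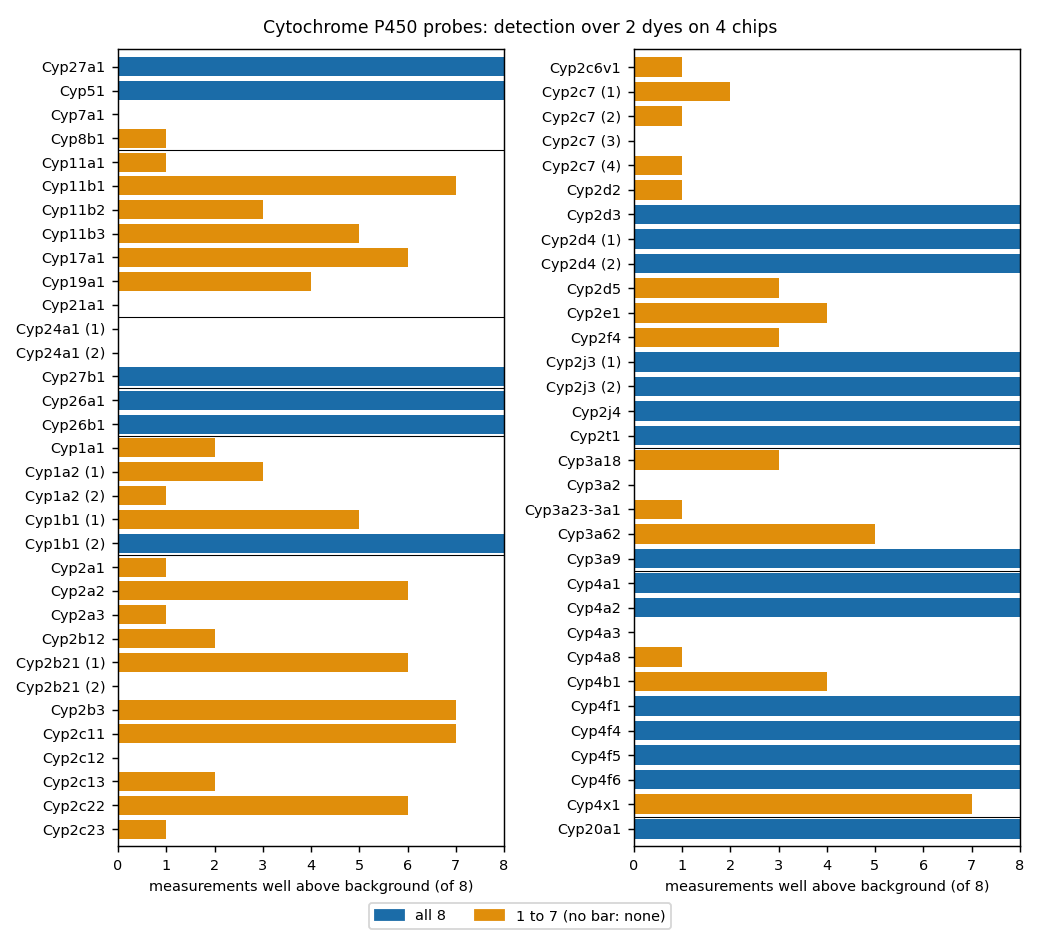
The bars give, for each of the 65 cytochrome P450 probes, the number of measurements out of 8 (2 dyes on 4 chips) that were well above background; black lines separate functional groups, from sterol genes at the top left to Cyp20a1 at the bottom right, and a number in parentheses separates probes of 1 gene. The 21 blue bars reach 8, while 9 probes have no bar.

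No measurement was above background for 6 genes. They were Cyp7a1, the rate-limiting enzyme of classical bile acid synthesis in the liver, Cyp24a1, which inactivates vitamin D in the kidney, Cyp21a1, the adrenal steroid hydroxylase, and the liver forms Cyp2c12, Cyp3a2 and Cyp4a3. Cyp24a1 was at background with both of its probes. Single probes of Cyp2b21 and Cyp2c7 also passed in no measurement, although another probe of Cyp2b21 passed in 6 measurements. The 4 probes of Cyp2c7, a liver enzyme, passed in 0 to 2 measurements.

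The number of members above background also varied from chip to chip. It ran from 25 of 65 in the Sed pool on chip 1 to 45 in the same pool on chip 3, and from 29 to 37 in the running pools. The share over all probes moved between 66.8% and 82.0% in the same 8 measurements.

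The sequence at the transcription start, which played no part in choosing the members, was available for 44 of the 56 genes. It covers 250 bases before and 50 after the RefSeq start of the GRCr8 assembly, read along the gene. The 17 detected genes with a sequence held a median of 9 CpG dinucleotides (CG, in the reading direction), with a range of 0 to 27, and 8 of them held at least 10. The 23 genes above background in 1 to 7 measurements held a median of 2 (0 to 8), the 4 genes above background in none held a median of 0.5 (0 to 4), and none of these 27 reached 10. Among all genes of the array with such a sequence, the median was 20 for the 4829 detected genes, 4 for the 1571 in between and 2 for the 836 at background, and at least 10 CG were held by 79.2%, 26.9% and 13.8% of them. The median of the detected members was below that of the detected array genes, which is a description without a test. The letters TATAAA, searched in the gene's direction in the 50 bases before the start, were found in 1 of 17, 6 of 23 and 1 of 4 members, against 2.59%, 5.86% and 5.38% of the array genes of the same classes, 3.62% of all array genes and 2.26% of all promoters in the table. A match or its absence describes only these letters in this window.

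Sequences of contrasting kind are shown, with CG in capitals. Cyp51 and Cyp26b1 were detected and hold 27 and 12 CG, above and below the median of 15 over all array genes. Cyp2c7 was at or near background on all of its probes and holds no CG. Cyp4a2 was detected and also holds no CG, so that the count did not separate the classes gene by gene.
Cyp51, chr4:30991443-30991742, plus strand: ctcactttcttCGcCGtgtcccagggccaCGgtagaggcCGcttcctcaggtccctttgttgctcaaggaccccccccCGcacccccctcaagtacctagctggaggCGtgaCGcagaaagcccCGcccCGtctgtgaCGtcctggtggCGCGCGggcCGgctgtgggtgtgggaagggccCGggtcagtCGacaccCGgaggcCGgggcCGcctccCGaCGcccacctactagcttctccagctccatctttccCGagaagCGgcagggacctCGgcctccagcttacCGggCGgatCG
Cyp26b1, chr4:118616127-118616426, minus strand: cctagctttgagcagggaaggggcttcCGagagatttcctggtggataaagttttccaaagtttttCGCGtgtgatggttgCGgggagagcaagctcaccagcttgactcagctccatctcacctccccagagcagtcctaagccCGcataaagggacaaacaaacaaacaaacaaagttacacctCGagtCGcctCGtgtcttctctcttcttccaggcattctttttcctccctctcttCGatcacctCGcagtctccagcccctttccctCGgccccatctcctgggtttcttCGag
Cyp2c7, chr1:247966144-247966443, plus strand: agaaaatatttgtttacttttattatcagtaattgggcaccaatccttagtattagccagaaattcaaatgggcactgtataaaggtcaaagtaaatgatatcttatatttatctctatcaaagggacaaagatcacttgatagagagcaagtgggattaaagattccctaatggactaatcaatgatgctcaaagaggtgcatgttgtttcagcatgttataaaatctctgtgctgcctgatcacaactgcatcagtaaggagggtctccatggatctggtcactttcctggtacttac
Cyp4a2, chr5:134170859-134171158, minus strand: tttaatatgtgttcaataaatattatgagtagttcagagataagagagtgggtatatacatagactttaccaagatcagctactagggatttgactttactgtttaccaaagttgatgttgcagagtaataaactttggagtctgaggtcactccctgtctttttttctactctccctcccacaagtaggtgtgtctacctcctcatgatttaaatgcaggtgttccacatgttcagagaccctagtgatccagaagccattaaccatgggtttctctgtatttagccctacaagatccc

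**Figure D2:**
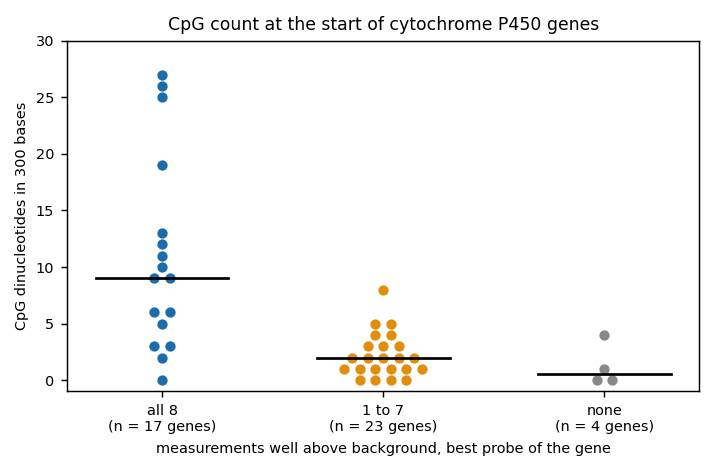
Each point is a cytochrome P450 gene, placed by its detection class (x axis) and by the number of CpG dinucleotides in 300 bases around its start (y axis); black lines are medians. Medians of 9, 2 and 0.5 stand for 17, 23 and 4 genes, and the 8 genes with 10 or more are all in the detected class.

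The second question was whether wheel running changed the members. Ratios below are log2 of running over Sed on each chip, and a positive value means more signal in the running pool. A change was called when both chips of a pair passed 1.5-fold, or both fell under 0.75-fold, with a single-chip error-model p under 0.01 on both. No member was called in WR (0 of 65) or in RWR (0 of 65); over all probes this rule called 0.0317% in WR and 0.0585% in RWR. Without the p-value the count was still 0 of 65 in both, against 0.549% and 1.48% of all probes. The study lists the probes A_44_P302721 and A_44_P482563 under P450 names among the transcripts most induced with RWR. They carry accessions that matched no Cyp symbol, so these counts do not cover them. They were looked at after their values were known. Both were above background in 0 of 8 measurements. The ratios of A_44_P302721 were 0 and 0.89 in WR and 0 and 2.25 in RWR, where 0 stands for a ratio that could not be measured. Those of A_44_P482563 were -0.16 and 0 in WR and 1.61 and 0.59 in RWR, past 1.5-fold on both chips with single-chip p of 0.27 and 0.76, so neither probe was called.

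The means of the 2 chips lay close to 0 for the 21 detected probes. They ran from -0.23 to 0.19 in WR, with a median of -0.017, and from -0.12 to 0.13 in RWR, with a median of 0.054. For all detected probes of the chips the medians were 0.0028 and 0.0020. The sign was the same on both chips of the pair for 7 of 21 probes in WR (28.4% of all detected probes) and for 9 of 21 in RWR (32.8%). In WR, 3 of those 7 were above 0, and in RWR 5 of those 9. Both shares of members (33.3% and 42.9%) are read against those of all detected probes, and nothing particular to the family is drawn from them.

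**Figure D3:**
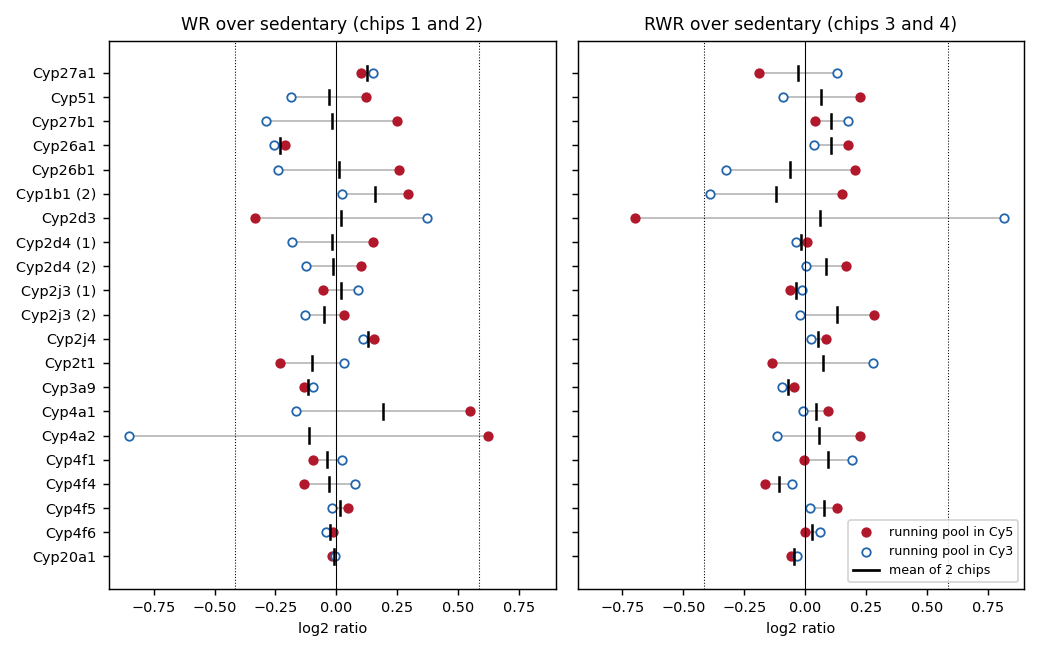
Each row is a detected cytochrome P450 probe; the x axis is the log2 ratio of running over Sed, red points the chip with the running pool in Cy5, open blue points the chip with it in Cy3, black ticks their mean, and dotted lines 0.75-fold and 1.5-fold. The means stay between -0.23 and 0.19, and Cyp4a2 in WR and Cyp2d3 in RWR have the widest gaps between the chips of a pair.

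In sterol metabolism, Cyp51, the lanosterol demethylase of cholesterol synthesis whose start is printed above, gave Sed signals of 2308, 2281, 2390 and 2273 on chips 1 to 4. The running signals were 2511 and 2003 in WR and 2789 and 2134 in RWR. The running pool was the brighter one only on the chips where it carried Cy5, and the ratios were 0.12 and -0.19 in WR and 0.22 and -0.09 in RWR. Their means were -0.03 ± 0.22 and 0.07 ± 0.22 (SD of 2 chips), smaller than the spread between chips. Cyp27a1, the mitochondrial hydroxylase of the alternative bile acid route, gave ratios of 0.10 and 0.15 in WR and of -0.19 and 0.13 in RWR. In WR its mean of 0.12 ± 0.03 was a 1.09-fold difference, under the 1.5-fold limit. With another background correction (normexp) the chip 1 ratio turned to -0.006 and the WR mean was 0.087. With no background correction they were -0.026 and 0.070. Cyp8b1, which is needed for cholic acid in the liver, passed in 1 measurement only, and its ratios of 1.20, -1.36, 2.53 and -1.76 turned with the dyes.

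The retinoic acid hydroxylases limit the reach of retinoic acid, a regulator of neuronal differentiation. Cyp26b1 had Sed signals of 1303, 1428, 1415 and 1421 and running signals of 1559, 1211, 1629 and 1135. Its ratios of 0.26 and -0.24 in WR and of 0.20 and -0.32 in RWR changed sign within each pair, with means of 0.01 ± 0.35 and -0.06 ± 0.37. Cyp26a1 was much nearer to background, with Sed signals of 38.0, 32.1, 38.7 and 48.9 and running signals of 32.9, 26.9, 43.7 and 50.1. The WR pool was below Sed on both chips (-0.21 and -0.26) and the RWR pool above it on both (0.18 and 0.03). It was the only detected member on opposite sides of 0 in the 2 comparisons on both chips of each, 1 of 21, where 4.62% of all detected probes were.

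In vitamin D metabolism, Cyp27b1, which makes the active hormone, had Sed signals of 63.9, 85.7, 99.7 and 115 and running signals of 76.0, 70.3, 102 and 130. WR ratios were 0.25 and -0.29, on both sides of 0. RWR ratios were 0.04 and 0.17, and their mean of 0.11 ± 0.10 was a 1.08-fold difference. On chip 4 the ratio was 0.0007 with normexp and -0.0016 with no background correction, and the RWR means were 0.14 and 0.10.

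Of the steroid hormone genes, Cyp11b1, the last enzyme of glucocorticoid synthesis, came nearest to detection with 7 measurements, and Cyp17a1, on the route to androgens, had 6. Cyp11b1 ratios were 1.01 and -0.12 in WR and 0.27 and -0.29 in RWR. Cyp17a1 had ratios of 0.42, -0.58, 0.19 and 0.11, and its Sed signal was 26.1, 27.9 and 36.7 on the first 3 chips and 82.2 on chip 4, where the RWR signal was 89.0. Both dyes were high on that chip, so the ratio there stayed small. The chip 3 ratio of Cyp17a1 turned to -0.15 with normexp and to -0.12 with no background correction. Cyp19a1, the aromatase that makes oestrogens, was above background in 4 measurements, and its WR ratios were -1.20 and 1.21. Its RWR ratios were 0.21 and 0.18. On chip 4 the ratio turned to -0.015 with normexp and to -0.075 with no background correction, and the RWR means were 0.17 and 0.079. Cyp11a1, which makes pregnenolone from cholesterol, passed in 1 measurement, and its ratios were -1.62, 2.12, -2.14 and 1.79. The aldosterone synthase Cyp11b2 passed in 3 measurements and its relative Cyp11b3 in 5.

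In family 1, whose genes are induced through the aryl hydrocarbon receptor, Cyp1b1 had 1 of its 2 probes detected. That probe gave ratios of 0.29 and 0.02 in WR and of 0.15 and -0.39 in RWR. The other Cyp1b1 probe passed in 5 measurements, and its ratios of -0.18 and -0.13 in WR had the opposite sign. With normexp the WR ratios were 0.09 and -0.23 for the detected probe and -0.09 and 0.10 for the other. With no background correction the signs of each probe were also split between the WR chips. The gene thus had no direction in WR that both probes shared. Cyp1a1 and Cyp1a2 were above background in 2 measurements and in 1 to 3.

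Family 2 contributed 22 genes. Cyp2d4, a form known from rat brain, was detected with both probes, and their ratios ran from -0.18 to 0.17. Its Sed signal hardly moved between chips, from 796 to 822 with one probe and from 719 to 794 with the other. Cyp2j3 and Cyp2j4 belong to the epoxygenases of arachidonic acid. Cyp2j4 was above 0 on all 4 chips, though not on chip 3 under both other background settings (-0.06 with normexp and -0.03 with none), with 0.15 and 0.11 in WR and 0.08 and 0.02 in RWR, and the means were 0.13 ± 0.03 and 0.05 ± 0.04. Cyp2j3 was detected with both probes, with ratios from -0.06 to 0.09 in one and from -0.13 to 0.28 in the other. Cyp2t1 had ratios of -0.23 and 0.03 in WR and of -0.14 and 0.28 in RWR.

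Cyp2d3 had the widest gap between paired chips in RWR among the detected members. Its ratios were -0.33 and 0.37 in WR and -0.70 and 0.82 in RWR. The Cy3 signal was the brighter one on all 4 chips. Cyp2e1, the ethanol-oxidising form, was above background in 4 measurements, and its ratios lay between -0.18 and 0.27. The male-specific liver form Cyp2c11 was above background in 7 measurements, with ratios of 0.60 and -0.21 in WR and of -0.03 and 0.16 in RWR. Several genes of the Cyp2c, Cyp2d, Cyp3a and Cyp4a groups are close copies of each other, and whether a probe of these groups also binds a neighbour's transcript was not tested.

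In family 3, Cyp3a9 was the only detected gene of 5. Its Sed signals were 229, 216, 249 and 199, and the running signals were 208, 202, 241 and 186. The running pool was below Sed on all 4 chips, with ratios of -0.13 and -0.10 in WR and of -0.05 and -0.10 in RWR, which are 0.923-fold and 0.952-fold. Cyp3a9, Cyp2j4 and Cyp20a1 were the 3 detected probes of 21 with 1 sign on all 4 chips, and 10.4% of all detected probes had this. With normexp and with no background correction Cyp3a9 kept its sign on all 4 chips, while Cyp2j4 turned on chip 3 and Cyp20a1 on chips 2 and 4. None of the 3 came near 1.5-fold or 0.75-fold.

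In family 4, the Cyp4f enzymes inactivate leukotrienes and hydroxylate fatty acids, and Cyp4f1, Cyp4f4, Cyp4f5 and Cyp4f6 were all detected. Their 16 ratios lay between -0.16 and 0.19. Cyp4f6 had Sed signals of 3653, 2950, 3146 and 2384 and running signals of 3617, 2866, 3143 and 2485, so that both pools moved together from chip to chip. Cyp4a1 and Cyp4a2, fatty acid hydroxylases of liver and kidney, were detected at low signal. Cyp4a2 gave 0.62 on chip 1 and -0.85 on chip 2 in WR, with single-chip p of 0.032 and 0.0012, and the 2 chips pointed in opposite directions. In RWR it gave 0.23 and -0.12. Cyp4a1 gave 0.55 and -0.17 in WR, and 0.10 and -0.0072 in RWR. Cyp4x1, a form known from brain, missed detection by 1 measurement.

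Cyp20a1, an orphan enzyme without an assigned substrate, had the smallest ratios of the detected members when each is judged by its largest of 4. Sed signals were 620, 609, 690 and 582, running signals were 612, 607, 663 and 569, and the 4 ratios lay between -0.06 and -0.0045.

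**Figure D4:**
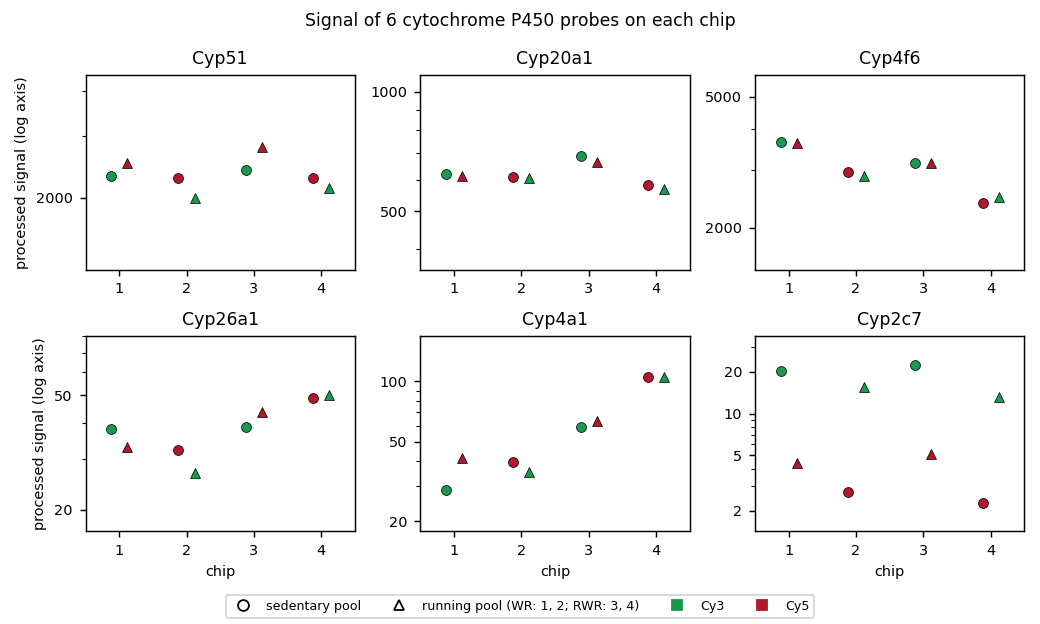
Processed signal (log y axis, with its own range in each panel) of the Sed pool (circles) and the running pool (triangles) on chips 1 to 4, in Cy3 (green) and Cy5 (red), for 6 cytochrome P450 probes. Cyp51, Cyp20a1 and Cyp4f6 show pools close together, Cyp4a1 rises on chips 3 and 4 in both pools, and the Cyp2c7 probe follows the dye.

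The Sed pool was measured on every chip, in Cy3 on chips 1 and 3 and in Cy5 on chips 2 and 4. Its range shows how far a signal moved with chip and dye together, without any change of group. The highest Sed signal of a detected member was 1.03 to 3.68 times its lowest, with a median of 1.25, and over all detected probes the median was 1.24. Cyp4a1 had the widest range, from 28.5 on chip 1 to 105 on chip 4. Cyp4a2, with 43.6 to 93.1, and Cyp2d3, with 19.9 to 41.9, also moved by more than 2-fold, which makes 3 of 21 detected members (14.3%) against 3.36% of all detected probes. The Sed signals of Cyp2d3 were 30.8 and 41.9 in Cy3 and 19.9 and 24.6 in Cy5. The scans were not scaled to each other, so differences between WR and RWR rest on ratios to the Sed pool on the same chip.

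Some of the probes at or near background had large ratios toward 1 dye. Of the 65 members, 15 were past 1.5-fold toward 1 dye on all 4 chips, against 8.8% of all probes. None of the 21 detected members was, against 0.745% of all detected probes. All 15 were thus among the 44 members that were not detected. Since 32.3% of members but 60.8% of all probes were detected, the share over all probes is not of a like set. Among probes not detected, the median size of the mean log2 ratio of Cy5 over Cy3 was 0.68 in WR and 0.66 in RWR for members. For all such probes it was 0.62 and 0.59. The 15 probes stand for 14 genes, and 12 were brighter in Cy3 and 3 in Cy5, namely Cyp2b12, Cyp3a62 and Cyp8b1. One Cyp2c7 probe gave -2.20 and 2.48 in WR and -2.15 and 2.53 in RWR. Cyp3a18, with 3 measurements above background, gave -1.06 and 2.09 in WR and -1.97 and 1.42 in RWR. The probe of Cyp1a1, which is spotted 10 times per chip, was above background in Cy3 at 2 to 8 spots per chip and in Cy5 at none.

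Across the 65 probes, the ratios of the 2 chips of a pair were inversely related, with Pearson's r = -0.79 in WR and r = -0.85 in RWR (n = 65 probes that share their chips, pools and dyes). For the 21 detected members r was -0.66 and -0.78, and for all probes -0.76 and -0.69. After another background correction (normexp), or with none, 0 of 65 members passed 1.5-fold toward 1 dye on all chips, while r between the paired chips stayed between -0.81 and -0.71. Both settings made ratios of low signals smaller, so the 0 of 65 was not read as an absence of the dye pattern.

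**Figure D5:**
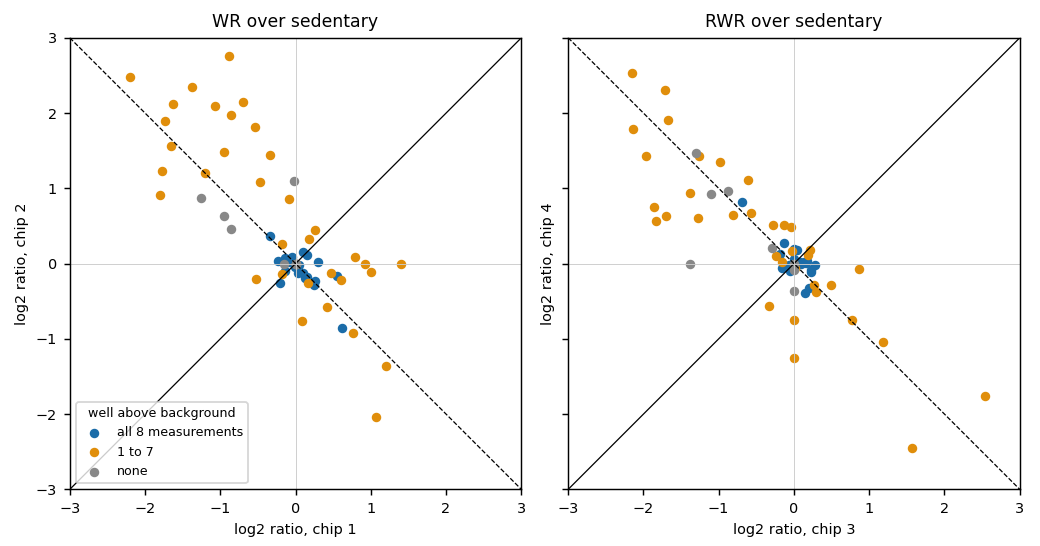
Each point is one of the 65 cytochrome P450 probes, with its log2 ratio of running over Sed on the first chip of a pair (x axis) and on the dye-swapped chip (y axis), coloured by the number of measurements above background. Points lie along the dashed line of opposite values (r = -0.79 and -0.85), and blue points, the detected probes, stay near the centre.

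Single-chip error-model p-values under 0.01 were found for 11 members on at least 1 chip (16.9%, against 13.5% of all probes), of which 2 were detected in all 8 measurements (Cyp4a2 and Cyp2d3). In 4 of them, Cyp2c22, Cyp1a1, Cyp2b12 and Cyp8b1, both chips of a pair reached it (4.44% of all probes did), and in 0 of those 4 did the chips share a sign. Cyp2c22 had ratios of -0.95 and 1.49 in WR. With the fold limits added, 1, 8, 7 and 4 of 65 members passed on chips 1, 2, 3 and 4 taken alone, against 3.92%, 7.81%, 6.89% and 6.27% of all probes. Such a p-value covers the error of 1 chip and was not read as a change between groups.

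Where a probe was below background in one pool on both chips of a pair and above it in the other, the brighter pool was above background on 1 of the 2 chips only. Ratios printed above for some of these probes include measurements below background, and no lower bound of a fold is given for them.

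The genes that work with the P450 enzymes were read from a list of 50 electron donors, carriers, receptors and neighbouring enzymes. A probe was matched for 47 of them, 33 were detected in all 8 measurements (66.6% of all named genes were) and 4 in none, among them Vdr, the vitamin D receptor. None of the 47 was called in WR or RWR, with the p-value or without it. The medians of the 33 were 0.0048 in WR (range -0.14 to 0.20) and 0.031 in RWR (range -0.13 to 0.18). The electron donor Por gave 0.01 ± 0.10 in WR and 0.05 ± 0.02 in RWR, and Fdxr, which feeds the mitochondrial enzymes, 0.05 ± 0.01 and 0.06 ± 0.11. Of the 33, 5 had the same sign on all 4 chips, where 10.4% of all detected probes did, and nothing particular to these genes is drawn from it. Among those above 0 on all 4 chips were Rdh10 of retinoic acid synthesis, the steroid dehydrogenase Hsd17b1 and the cyclooxygenases Ptgs1 and Ptgs2. With both other background settings Rdh10 and Ptgs1 stayed above 0 on all 4, and Hsd17b1 and Ptgs2 did not. The largest mean of these was that of Ptgs2 in WR, at 0.20 ± 0.09.

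The tissue label was read against marker genes. All 4 measured markers each of neurons, astrocytes, oligodendrocytes and microglia were detected in all 8 measurements, and none was called. Of 3 measured markers of endothelium and mural cells 2 were detected, and the other, Pecam1, was above background in 1 measurement, with means of 0.31 in WR and -0.45 in RWR. Of 5 choroid plexus markers 2 were detected and 2 were at background throughout, and the ratio of Ttr was -0.86 ± 0.19 in WR, which was called, and 0.12 ± 0.11 in RWR, which was not. The other detected marker, Folr1, gave -0.07 and -0.36 in WR. Sostdc1, above background in 7 measurements, gave -0.22 and -1.80 in WR, and neither was called. Kl and Kcne2, at background, had WR means of 0.43 and 0.29. Of 4 liver markers, Alb and Serpina1 were detected, while Apoa1 and Tat were at background throughout. A second Alb probe, above background in 1 measurement, gave -0.95 and -0.93 in RWR, past 0.75-fold on both chips but not called, while the detected Alb probe gave 0.04 and -0.04. The part of these tissues in the signals of the members was not tested.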

How the data were processed

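The authors labelled pooled hippocampal RNA with Cy3 and Cy5, hybridised it to chips of 1 slide and processed the scans with Agilent Feature Extraction 11.0.1.1, with LOWESS dye normalization. The deposited processed signal is an intensity after background subtraction and dye normalization, on a linear scale. The deposited log ratio is log10 of Cy5 over Cy3, set to 0 where it could not be measured (4 to 8 member spots per chip). The deposited p-value comes from the error model of a single chip. The series table of the authors gives log10 of Cy5 over Cy3 processed signal, not turned for the dye swap, and its column medians were 0.00851, 0.0045, 0.0037 and 0.00214; it served as an alternative. Per the file headers the array was designed on rn4.

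Control spots and outlier flags were left out (0 to 3 member spots per chip), spots of a probe were averaged, log2 ratios were turned to running over Sed, and a probe took the median p-value of its spots. Accessions were matched without version to RefSeq (GRCr8), used for names and promoter sequences; 10768 probes matched. Described genes were every Cyp gene detected, called or on a list of 34 Cyp genes, of which 27 had a probe. Some members outside this rule, such as Cyp2c11, Cyp2c22 and Cyp3a18, were described as well. The members and lists were chosen with earlier results of these data known. Alternatives were normexp (offset 50) or no background subtraction with loess in limma 3.58.1 (R 4.3.3), median centring, other detection rules, no p-value and each chip alone. Tables were made in Python 3.11.15 with pandas 2.3.3. The selection was tested on simulated data. Unchanged probes there had opposite values on the 2 chips of a pair, so false calls could not arise. The p-value was not part of that run. The number of chips limits the precision. One gene of the list of partner genes is not reported here.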

Additional observations from a re-analysis of the deposited data

Results flagged for a closer look

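Cyp26a1, a retinoic acid hydroxylase, lay on opposite sides of 0 in the 2 comparisons on every chip. WR over Sed was -0.21 and -0.26, and RWR over Sed was 0.18 and 0.03, so that the RWR ratio was higher than the WR ratio by 0.34 on the log2 scale. Among the detected members this held for 1 of 21 (4.76%), against 4.62% of all detected probes, and the single-chip p-values were 0.54, 0.43, 0.51 and 0.90. The difference was not tested, since each group was 1 pool. The signs were kept with the normexp background correction (means of -0.10 in WR and 0.15 in RWR) and with no background correction (-0.083 and 0.12). Its signals lay between 26.9 and 50.1, among the lower ones of the detected members.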

How the results depend on the processing

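The count of detected Cyp genes depended most on the rule, being 19 with well above background in all 8 measurements, 27 with both chips of at least 1 pair, 40 with the looser flag for a positive and significant signal in all 8, and 50 with at least 1 of 8, which are 33.9%, 48.2%, 71.4% and 89.3% of the 56 genes against 66.6%, 71.8%, 81.6% and 88.5% of all named genes; without single chips it was 19 to 24. Without chip 1 it was 24. The count of called members was 0 in WR and in RWR under every alternative that used both chips of a pair. These included no p-value, equal cutoffs, centring, the series table and both other background settings, with and without the p-value. The background settings without the p-value were added after seeing the data. Both background settings also made ratios of low signals smaller. The chip 2 ratio of Cyp2c13 was 2.76 as deposited, 0.52 with normexp and 0.37 with no background correction. For members of low signal, a count of 0 under these 2 settings therefore adds little. With 1 chip left out of the pair the count was 1 to 8 in WR (8 without chip 1, 1 without chip 2, against 7.81% and 3.92% of all probes). In RWR it was 4 to 7 (4 without chip 3, 7 without chip 4, against 6.27% and 6.89%). The median of the detected probes, -0.017 in WR, ranged from -0.042 to 0.049 with 1 chip of the pair and was -0.0077 with normexp and -0.011 with no background correction, and the RWR median of 0.054 ranged from -0.0072 to 0.039 with 1 chip and was 0.0086 over all Cyp probes, 0.027 with normexp and 0.025 with no background correction. The cause was not tested. Of 130 single-probe values, 23 moved by more than the spread of the 2 chips with normexp, 21 with no background correction, 10 with the series table and 2 with centring (0.0030 in place of 0, at Cyp2c12 and Cyp4a3 in RWR, whose ratios were set to 0 on both chips). Selecting members by a gene name column could not be run, since the spots could be matched by accession only. No paired analysis was possible because each comparison is of 1 pool with 1 pool. Low signal limits all members that were not detected.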
